A study of Mus musculus with 21 samples.

Results

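The transcripts that accompany an active Il23r reporter were compared across 3 cytokine cultures of mouse CD4 T cells, with GFPpos cells set against GFPneg cells in a single additive model and the culture as a block. The cultures are IL-12+IL-21, TGFb+IL-6 and IL-1b+IL-6+IL-23, called the IL-21, TGFb and IL-23 cultures after a cytokine that each has and the others lack. Of the series' 21 libraries, the 14 of these cultures with at least 7000 genes at a TPM of at least 1 were used (TPM is a transcript's share of the library, corrected for its length). There were 7 GFPpos libraries (3 of the IL-21 culture, 3 of the IL-23 culture and 1 of the TGFb culture) and 7 GFPneg libraries (2, 3 and 2 of the same cultures). All cells came from mice heterozygous for the Il23r wt/eGFP allele, so GFPpos and GFPneg cells alike carry 1 disrupted copy of Il23r: per the series' design text this allele makes no functional receptor and expresses eGFP through an IRES. Naive CD4 T cells, low for CD44, high for CD62L and negative for CD25, were taken from spleen and lymph nodes, stimulated for 5 days through CD3 and CD28 by antibodies fixed to the plate, and sorted by eGFP. The IL-21 culture had 20 ng/ml of IL-21 and 20 ng/ml of IL-12. The IL-23 culture had 20 ng/ml of IL-23, 25 ng/ml of IL-6 and 20 ng/ml of IL-1b, and the TGFb culture 25 ng/ml of IL-6 and 2 ng/ml of TGF-b. Libraries were full-length SMART-Seq2 libraries. The age, sex and number of mice are not given in the sources used here, and nothing says that replicates came from separate mice or cultures, so p-values measure the spread between these libraries.

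The receptor of IL-23 is a pair of chains, IL-23R and the shared chain IL-12Rb1, that signals mainly through STAT3 in T cells. Its gene, Il23r, is switched on in Th17 cells, the T helper cells that make IL-17A, IL-17F and IL-22 under lineage factors that include the nuclear receptor RORa. IL-12 drives T cells toward the Th1 fate, whose hallmark is interferon gamma, and IL-21 signals mainly through STAT3. TGF-b with IL-6, and IL-1b with IL-6 and IL-23, are standard routes to Th17 cells, and signalling through the IL-23 receptor is known to sustain Th17 cells and to be needed in several mouse models of autoimmune inflammation.

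Il23r and eGFP chose the cells, so their levels are a check of the sort and not a result. Il23r had 31.8, 24.2 and 36.4 TPM in GFPpos cells of the IL-21 culture, against 3.04 and 6.36 TPM in GFPneg cells. Il23r levels in the IL-23 culture were 21.7, 24.9 and 38.9 TPM in GFPpos cells and 7.33, 6.02 and 7.56 TPM in GFPneg cells. Il23r had 3.57 TPM in GFPpos cells of the TGFb culture, against 0.870 and 0.730 TPM in GFPneg cells. GFPpos libraries lay above GFPneg libraries in each culture, with lower levels throughout in the TGFb culture. The row EGFP_IRES_IL23R, the reporter sequence in the table, ran from 9.64 to 35.0 TPM (median 23.3) in GFPpos libraries, against 0 to 5.29 TPM (median 1.53) in GFPneg libraries. The 2 rows may share reads.

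GFPpos cells differed from GFPneg cells in the same direction in all 3 cultures for a set of genes led by Ifitm1, Cd24a, Il22, Il17f, Atp6v0d2 and Serpinf1 on the higher side and by Il2, Hmgb2, Phgdh and Hist1h2ao on the lower side. Of 9466 genes tested with limma (TPM of at least 1 in at least 3 of the 14 libraries, log2(TPM + 1), Benjamini-Hochberg adjusted p under 0.05), 546 were called (5.77%), 497 higher (5.25%) and 49 lower (0.518%) in GFPpos. Of these, 491 of the higher (5.19% of genes tested) and 48 of the lower (0.507%) had the same sign in each culture. With no overlap of GFPpos and GFPneg libraries within any culture as a further condition, 259 (2.74%) and 24 (0.254%) were left. Called or not, 3.76% of genes tested were higher and 0.444% lower in GFPpos with no such overlap, and the unadjusted p was under 0.05 for 25.6%. Again called or not, 41.5% of all genes tested were higher in GFPpos in all 3 cultures and 6.02% lower, so a shared sign alone sets few genes apart.

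That imbalance goes with a shift of all genes. The median gene was 0.20 log2 units higher in GFPpos (0.25 in the IL-21 culture, 0.08 in the IL-23 culture and 0.37 in the TGFb culture). GFPpos libraries also had more genes at a TPM of at least 1, between 8362 and 9248, against 7522 to 8353 in GFPneg libraries, with no overlap within any culture. The part of this difference in the results was not tested. Scaling each library by the median of its ratios to the average library brought the median gene to 0.02 and changed the split to 98 higher and 167 lower genes of 9394 tested (1.04% and 1.78%, together 2.82%), of which 1.02% and 1.76% of genes tested had the same sign in each culture. All 98 were also called higher without the scaling, all 49 genes called lower without it were also called lower with it, and no called gene changed sign, so changes below are best read against the shift of 0.20.

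The TGFb culture GFPpos arm was a single library, replicate 1. Without it, 154 genes were called, and with TGFb culture GFPpos replicate 2, which has 5608 genes at a TPM of at least 1, added, 6 were called (Il23r, the reporter row, Ifitm1, Cd24a, Serpinf1 and Pdgfa), with 660 genes at an unadjusted p under 0.05. With all 18 libraries of the cultures limma called 0 genes, while the unadjusted p was under 0.05 for 336. Calls in all 14 fits that left out 1 library numbered 113, of which 103 were higher and 10 lower. Of these, 72 (62 higher and 10 lower) were also called with median-ratio scaling and with quantile normalization. Of the 83 named genes and rows that were called, 41 were called in all 14 of those fits. The others lost the call most often without TGFb culture GFPpos replicate 1 (39 of 83), among them Il24, Il4ra, Satb1, Smad3, Thy1, Cd3g, H2-Q9 and Hmgn2, which lost it in no other such fit, and least often without IL-23 culture GFPneg replicate 3 (5 of 83). The additive coefficient weighs the IL-21 culture by 35.6%, the IL-23 culture by 44.6% and the TGFb culture by 19.8%.

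**Figure D1:**
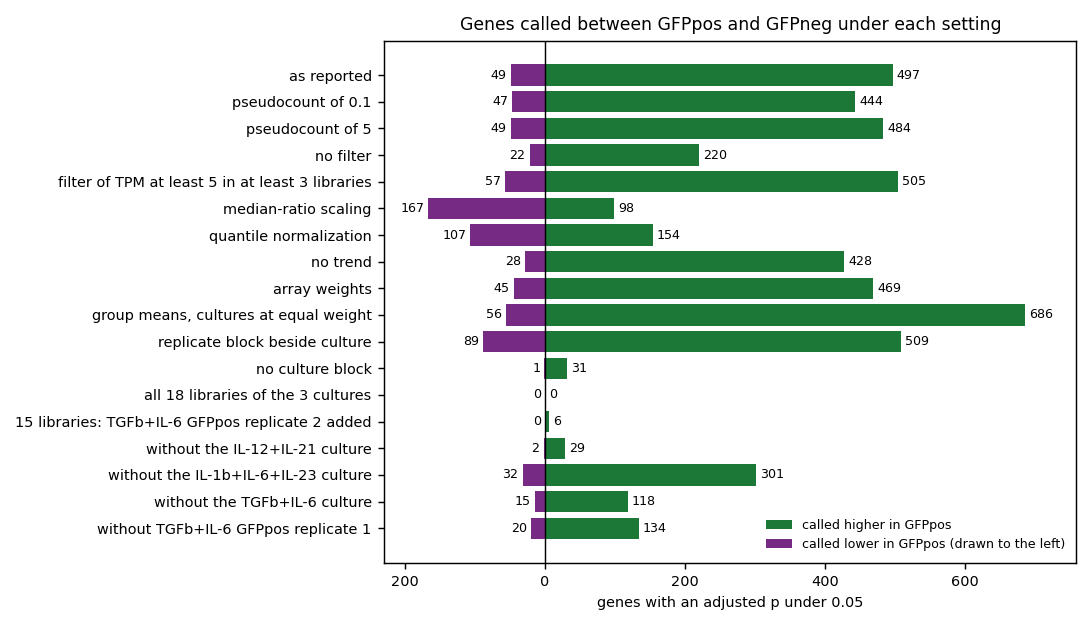
Number of genes with an adjusted p under 0.05 (horizontal axis) called higher in GFPpos (bars to the right) and lower in GFPpos (bars to the left) for the fit as reported and for each other setting (vertical axis). The bars shrink to 6 higher and 0 lower genes when TGFb culture GFPpos replicate 2 is added, and median-ratio scaling turns the split to 98 higher and 167 lower.

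Of 12 tested Th17 cytokine genes, Il17f, Il22, Il17a and Il24 rose with the reporter. Il17f, which encodes a cytokine that calls in neutrophils and stirs epithelial cells to make antimicrobial proteins, lies on chromosome 1 from 20777146 to 20790617 (minus strand) in GRCm38, beside Il17a. In the IL-21 culture Il17f had 5.44, 3.24 and 6.19 TPM in GFPpos cells, against 1.70 and 0.590 TPM in GFPneg cells. GFPpos cells of the IL-23 culture had Il17f at 6082, 9475 and 9681 TPM and GFPneg cells at 1775, 2233 and 1988 TPM. With TGFb, Il17f had 9497 TPM in GFPpos cells, against 4744 and 3552 TPM in GFPneg cells. In the libraries used GFPpos lay above GFPneg in each culture, at very different levels, since Il17f was far higher in both Th17 cultures than in the IL-21 culture. TGFb culture GFPpos replicate 2, not used in the fit, had Il17f at 323 TPM, below both GFPneg libraries. In that library 9 of the 15 largest rises named below were above both GFPneg libraries and 5 below both. Its log2 change was 1.68 ± 0.17 (adjusted p = 7.79e-05), with differences of 1.49, 2.05 and 1.21 in the IL-21, IL-23 and TGFb cultures. In bulk samples fewer cells making a transcript and less of it per cell cannot be told apart.

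Il22 levels in the IL-21 culture were 6.50, 17.3 and 2.45 TPM in GFPpos cells and 0 and 1.62 TPM in GFPneg cells. For the IL-23 culture the Il22 levels were 299, 281 and 251 TPM in GFPpos cells and 109.7, 96.3 and 80.3 TPM in GFPneg cells. Il22 in the TGFb culture had 8.23 TPM in GFPpos cells, against 0 and 0.940 TPM in GFPneg cells. IL-22 acts on epithelial cells rather than on leukocytes, and its transcript was higher in every GFPpos library than in any GFPneg library of the same culture, although the levels of the TGFb and IL-21 cultures were low. The log2 change was 2.03 ± 0.32 (adjusted p = 0.00354), with culture differences of 2.27, 1.54 and 2.73 in the same order. The near copy Iltifb may share reads with Il22.

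Il17a had 0.460, 0.540 and 2.47 TPM in GFPpos cells of the IL-21 culture, against 0.430 and 0.890 TPM in GFPneg cells. Il17a levels in the IL-23 culture were 615, 697 and 1199 TPM in GFPpos cells and 81.6, 89.8 and 142 TPM in GFPneg cells. Il17a had 876 TPM in GFPpos cells of the TGFb culture, against 219 and 260.3 TPM in GFPneg cells. Here the sorts overlapped in the IL-21 culture, where all 5 libraries were low, and stood apart in both Th17 cultures. In TGFb culture GFPpos replicate 2, not used in the fit, Il17a was at 69.7 TPM, below both GFPneg libraries. The additive log2 change of Il17a, the signature Th17 cytokine gene, was 1.79 ± 0.36 (adjusted p = 0.0115), made of 0.27, 2.97 and 1.87 in the 3 cultures, and the test of a difference between cultures gave an adjusted p of 0.244. Without the IL-23 culture Il17a was not called, and neither was it without the TGFb culture.

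Of the 12 tested Th17 cytokine genes, 4 were called higher and 0 lower, against 5.25% and 0.518% of all genes tested, and the list's median was 0.33 against 0.20. The other member that rose was Il24, an IL-10 family cytokine gene, by 0.87 ± 0.20 (adjusted p = 0.0206), which lost its call with median-ratio scaling (adjusted p = 0.13) and overlapped between the sorts in the IL-21 culture. Ltb, the gene of lymphotoxin beta, had -0.54 ± 0.16 (adjusted p = 0.0515) and was called lower with median-ratio scaling (adjusted p = 0.0337). Not every T helper cytokine followed. Il21 ran from 29.6 to 89.8 TPM (median 62.8) in GFPpos libraries, against 24.6 to 68.1 TPM (median 43.9) in GFPneg libraries, a log2 change of 0.33 ± 0.21 (adjusted p = 0.329). Il10, the gene of an anti-inflammatory cytokine, had 0.22 ± 0.21 (adjusted p = 0.522). Csf2, which encodes GM-CSF, was listed at 0 in all 14 libraries and could not be tested.

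**Figure D2:**
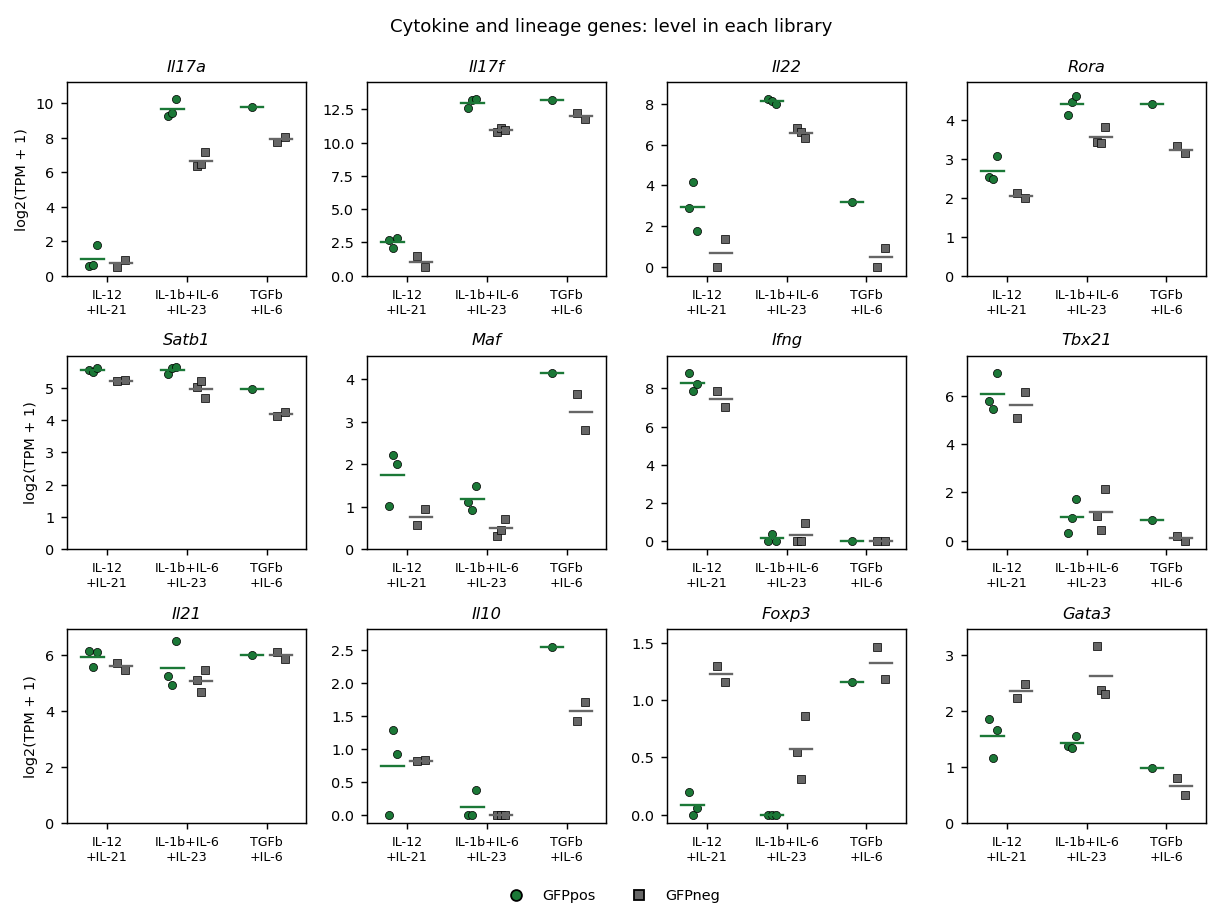
Level of 12 cytokine and lineage genes as log2(TPM + 1) (vertical axis) in each library by culture (horizontal axis), with GFPpos as circles on the left and GFPneg as squares on the right of each culture. Horizontal lines are means, and TGFb culture GFPpos is 1 library. Il17f, Il22, Rora and Maf lie higher in GFPpos in every culture, Ifng and Tbx21 are high in the IL-21 culture alone, and Foxp3 has lower means in GFPpos in each culture.

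Some genes of Th17 transcription factors rose with the reporter. Rora encodes a nuclear receptor that takes part in the Th17 program. In the IL-21 culture Rora had 4.78, 4.54 and 7.45 TPM in GFPpos cells, against 3.33 and 2.96 TPM in GFPneg cells. GFPpos cells of the IL-23 culture had Rora at 16.5, 20.9 and 23.4 TPM and GFPneg cells at 9.83, 9.57 and 13.2 TPM. With TGFb, Rora had 20.2 TPM in GFPpos cells, against 9.03 and 7.84 TPM in GFPneg cells. GFPpos lay above GFPneg in each culture, and both sorts were lowest in the IL-21 culture. Its log2 change was 0.84 ± 0.16 (adjusted p = 0.00735).

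Maf, the gene of a factor that drives IL-10 and Th17 genes, rose by 0.84 ± 0.21 (adjusted p = 0.0333), and the chromatin organizer gene Satb1 by 0.53 ± 0.12 (adjusted p = 0.0203). Median-ratio scaling took the call from both (adjusted p = 0.0772 and adjusted p = 0.195), and Maf was called in 7 of the 14 fits with 1 library left out (log2 change 0.75 to 0.94). In all, 4 of 13 tested Th17 transcription factor genes were called higher and 0 lower (median 0.24), against 5.25% and 0.518% of all genes. The remaining members include Batf at 0.41 ± 0.12 (adjusted p = 0.0558), Irf4 at 0.24 ± 0.14 (adjusted p = 0.296), Stat3 at 0.13 ± 0.17 (adjusted p = 0.639) and Hif1a at 0.20 ± 0.14 (adjusted p = 0.386).

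The short promoter windows of Il17a and Il17f are shown because the genes are neighbours and both were called higher, as was Rora. In the IL-21 culture, though, the sorts overlapped for Il17a (difference 0.27) but not for Il17f (1.49) or Rora (0.64). Each is the 250 bases before the RefSeq start (GRCm38.p6) on the gene's own strand, and capitals mark AGGTCA, the core of the element that ROR proteins bind, or its reverse complement.
Il17a, chr1:20730655-20730904, plus strand: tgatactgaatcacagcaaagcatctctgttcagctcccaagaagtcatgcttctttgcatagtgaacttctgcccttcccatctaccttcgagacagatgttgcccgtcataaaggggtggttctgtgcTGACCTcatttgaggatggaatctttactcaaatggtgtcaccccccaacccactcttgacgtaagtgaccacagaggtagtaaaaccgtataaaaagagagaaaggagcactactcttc
Il17f, chr1:20784271-20784520, minus strand: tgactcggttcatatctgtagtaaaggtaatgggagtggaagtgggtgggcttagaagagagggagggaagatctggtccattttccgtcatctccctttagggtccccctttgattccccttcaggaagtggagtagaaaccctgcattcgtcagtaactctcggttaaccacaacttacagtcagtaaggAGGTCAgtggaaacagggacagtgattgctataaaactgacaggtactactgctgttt
Each window holds 1 match. Of the 15 largest rises named below, 12 had a window, and 6 of these held the core on either strand (Il23r, Il17a, Il17f, Serpinf1, Gnpda2 and Rhoc), against 13.8% of 27025 gene windows and 0 of the 9 windows found for the 15 largest falls. This motif is 1 of 6 that were searched in 4 sets of named genes with the gene results known, and it is shown because it had matches. The STAT palindrome TTCNNNGAA (7.18% of all windows) was in 0 of the 12 and 0 of the 9, and the cell cycle element TTTGAA (16.3%) in 1 of the 12 and 3 of the 9. Il23r, 1 of the 6 rises with a match, chose the cells. A match is a run of letters, not evidence of binding.

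Over all genes tested 5.25% were called higher and 0.518% lower. Of the genes of cytokine receptors 4 of 25 tested were called higher and 0 lower (median 0.21). Among them was Il23r itself, which chose the cells. The others were the IL-4 receptor gene Il4ra (0.60 ± 0.12 (adjusted p = 0.0137)), the IL-12 receptor gene Il12rb2 (0.60 ± 0.17 (adjusted p = 0.0451)) and Il1r1, through which IL-1 signals (0.74 ± 0.21 (adjusted p = 0.0483)). Median-ratio scaling left none of these last 3 called (adjusted p = 0.0541, adjusted p = 0.214 and adjusted p = 0.0932). Il1r1 was at 5.65, 5.06 and 3.79 TPM in IL-23 culture GFPpos cells, against 1.06, 1.40 and 0.950 TPM in GFPneg cells, and at no more than 0.43 TPM in any library of the other cultures, and it was called in 1 of the 14 fits with 1 library left out (log2 change 0.64 to 0.89), while Il12rb2 was called in 4. The shared chain of the IL-23 receptor, Il12rb1, had 0.25 ± 0.16 (adjusted p = 0.346), and the IL-6 receptor gene Il6ra 0.17 ± 0.18 (adjusted p = 0.549).

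The largest rises were mostly not cytokine genes. By the size of the log2 change, among called genes of the same sign in all 3 cultures with a mean of at least 5 TPM in the higher sort, they were Ifitm1, Cd24a, Tmsb15b1, Il22, Il23r, Il17a, Cox7a1, Atp6v0d2, Il17f, Crispld2, Serpinf1, Pdgfa, Gap43, Gnpda2 and Rhoc. Of these 15, 14 were called in all 14 fits with 1 library left out and with both other scalings, the exception being Tmsb15b1, a gene of the thymosin beta family. Il23r, which chose the cells, is 1 of the 14 and adds no support to any count of the largest rises.

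Ifitm1 levels in the IL-21 culture were 17.8, 10.3 and 21.6 TPM in GFPpos cells and 5.27 and 4.22 TPM in GFPneg cells. For the IL-23 culture the Ifitm1 levels were 64.5, 30.5 and 88.8 TPM in GFPpos cells and 4.79, 4.33 and 8.77 TPM in GFPneg cells. Ifitm1 in the TGFb culture had 39.5 TPM in GFPpos cells, against 1.55 and 0.870 TPM in GFPneg cells. Ifitm1 encodes a small membrane protein of a family that interferons induce and that hinders virus entry. It was higher in GFPpos in each culture without overlap, with differences of 1.56, 3.09 and 4.21 and a log2 change of 2.77 ± 0.34 (adjusted p = 0.000309), the largest of the 15. Ifitm3 ran from 109 to 830.2 TPM (median 269) in GFPpos libraries, against 12.3 to 457 TPM (median 108) in GFPneg libraries, with 1.21 ± 0.23 (adjusted p = 0.00896), and Ifitm2 had 0.50 ± 0.12 (adjusted p = 0.0256). Of 4 tested Ifitm genes 3 were called higher and 0 lower (median 0.86), but only Ifitm1 was called with median-ratio scaling (Ifitm3 adjusted p = 0.0536, Ifitm2 adjusted p = 0.275). Over all genes tested 5.25% were called higher and 0.518% lower. Of 23 other interferon-stimulated genes tested, 0 were called in either direction (median -0.03). Their member with the smallest adjusted p was Irf7, the gene of a factor that amplifies interferon responses, at -0.45 ± 0.14 (adjusted p = 0.0661), and this became a call with median-ratio scaling (adjusted p = 0.00922).

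Cd24a had 32.8, 27.0 and 51.9 TPM in GFPpos cells of the IL-21 culture, against 11.8 and 9.11 TPM in GFPneg cells. Cd24a levels in the IL-23 culture were 83.5, 61.7 and 74.3 TPM in GFPpos cells and 14.8, 11.8 and 17.2 TPM in GFPneg cells. Cd24a had 11.5 TPM in GFPpos cells of the TGFb culture, against 1.39 and 0 TPM in GFPneg cells. Cd24a encodes a small surface glycoprotein, and its lowest GFPpos value lay above its highest GFPneg value in each culture. Its log2 change was 2.21 ± 0.23 (adjusted p = 7.79e-05). Of 22 tested adhesion and surface glycoprotein genes 4 were called higher and 0 lower (median 0.11), against 5.25% and 0.518% of all genes. The other 3 were Thy1 (0.60 ± 0.13 (adjusted p = 0.0166)), Itga3 (0.61 ± 0.16 (adjusted p = 0.0349)) and Ly6a (0.37 ± 0.10 (adjusted p = 0.0385)), of which Itga3 was called with median-ratio scaling (adjusted p = 0.0496). Thy1 was called in 13, Itga3 in 5 and Ly6a in 4 of the 14 fits with 1 library left out.

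In the IL-21 culture Atp6v0d2 had 32.0, 26.7 and 55.6 TPM in GFPpos cells, against 8.62 and 8.91 TPM in GFPneg cells. GFPpos cells of the IL-23 culture had Atp6v0d2 at 21.8, 15.2 and 26.6 TPM and GFPneg cells at 5.55, 4.41 and 8.09 TPM. With TGFb, Atp6v0d2 had 4.68 TPM in GFPpos cells, against 0.820 and 1.45 TPM in GFPneg cells. Atp6v0d2 encodes a subunit of the vacuolar proton pump that acidifies lysosomes, best known from osteoclasts and macrophages. GFPpos libraries were above GFPneg libraries in each culture, and the log2 change was 1.71 ± 0.19 (adjusted p = 0.000149). In TGFb culture GFPpos replicate 2, not used in the fit, Atp6v0d2 was at 0.42 TPM, below both GFPneg libraries.

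Genes of secreted proteins were among the remaining rises. Serpinf1 levels in the IL-21 culture were 39.7, 34.5 and 38.9 TPM in GFPpos cells and 19.5 and 17.8 TPM in GFPneg cells. For the IL-23 culture the Serpinf1 levels were 37.4, 32.1 and 58.8 TPM in GFPpos cells and 12.4, 10.1 and 12.9 TPM in GFPneg cells. Serpinf1 in the TGFb culture had 24.6 TPM in GFPpos cells, against 6.66 and 8.38 TPM in GFPneg cells. Serpinf1, which encodes the secreted serpin PEDF, did not overlap between the sorts in any culture, and its log2 change was 1.43 ± 0.16 (adjusted p = 0.00016). Pdgfa, the gene of a growth factor for mesenchymal cells, ran from 4.16 to 84.4 TPM (median 23.6) in GFPpos libraries, against 0 to 41.7 TPM (median 10.2) in GFPneg libraries, with 1.43 ± 0.21 (adjusted p = 0.00186). Crispld2, a secreted protein gene, had 1.50 ± 0.16 (adjusted p = 8.41e-05). The proteoglycan gene Lum, at 637, 688 and 1157 TPM in IL-23 culture GFPpos cells against 435, 457 and 551 TPM in GFPneg cells, rose by 0.96 ± 0.19 (adjusted p = 0.00907). Of 9 tested matrix and secreted serpin genes 3 were called higher and 1 lower (median 0.37), against 5.25% and 0.518% of all genes. The gene that fell was Serpina3g, an intracellular serpin gene, at -0.69 ± 0.19 (adjusted p = 0.0455), which was called in 2 of the 14 fits with 1 library left out (log2 change -0.78 to -0.44). The third called higher was Lgals3, given below.

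The other members of the 15 have unlike roles. Gap43, the gene of a membrane protein of growing axons, had 1.32 ± 0.26 (adjusted p = 0.0107). Gnpda2, an amino sugar metabolism gene, had 1.31 ± 0.16 (adjusted p = 0.000309), Rhoc, a small GTPase gene, 1.28 ± 0.25 (adjusted p = 0.00942), and Cox7a1, a cytochrome c oxidase subunit gene, 1.79 ± 0.37 (adjusted p = 0.0144). Rhoc overlapped between the sorts in the IL-23 culture, and Gap43 and Cox7a1 did there too. In TGFb culture GFPpos replicate 2, not used in the fit, Gap43 (22.7 TPM) and Gnpda2 (0.78 TPM) were below both GFPneg libraries. Rhoc (16.8 TPM) and Cox7a1 (23.5 TPM) were above both there.

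**Figure D3:**
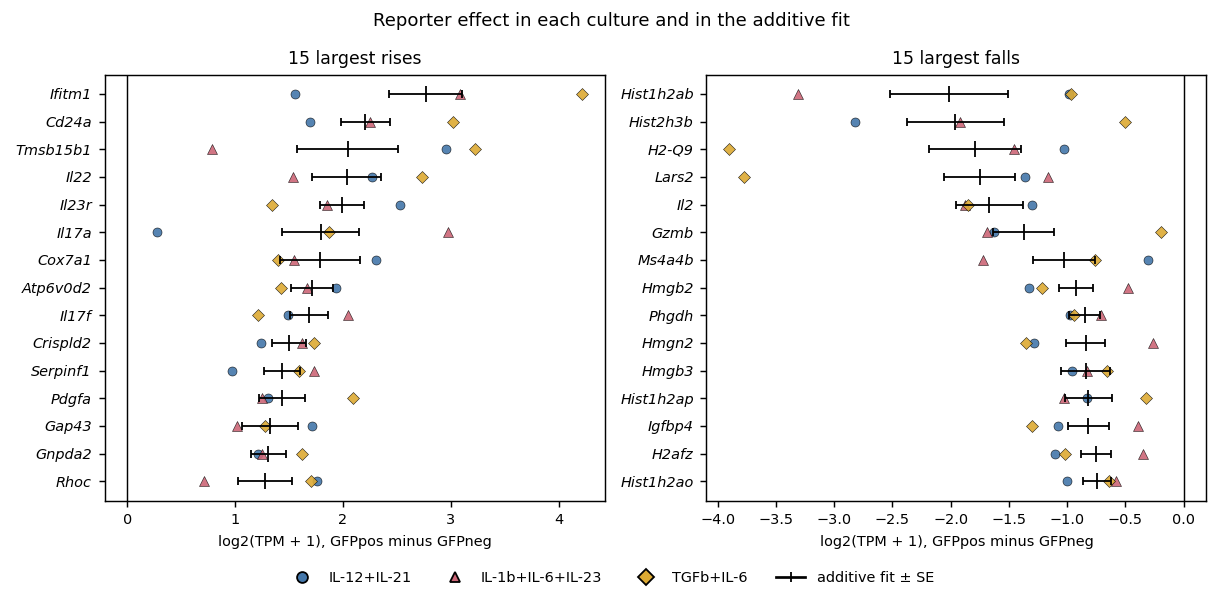
Difference between GFPpos and GFPneg on the log2(TPM + 1) scale (horizontal axis) for the 15 largest rises (left panel) and 15 largest falls (right panel), with a symbol for each culture and the additive estimate with its SE as a bar. All symbols lie on the same side of 0, as the choice of genes requires, and the cultures spread most for Ifitm1, Il17a, Lars2 and H2-Q9.

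**Figure D4:**
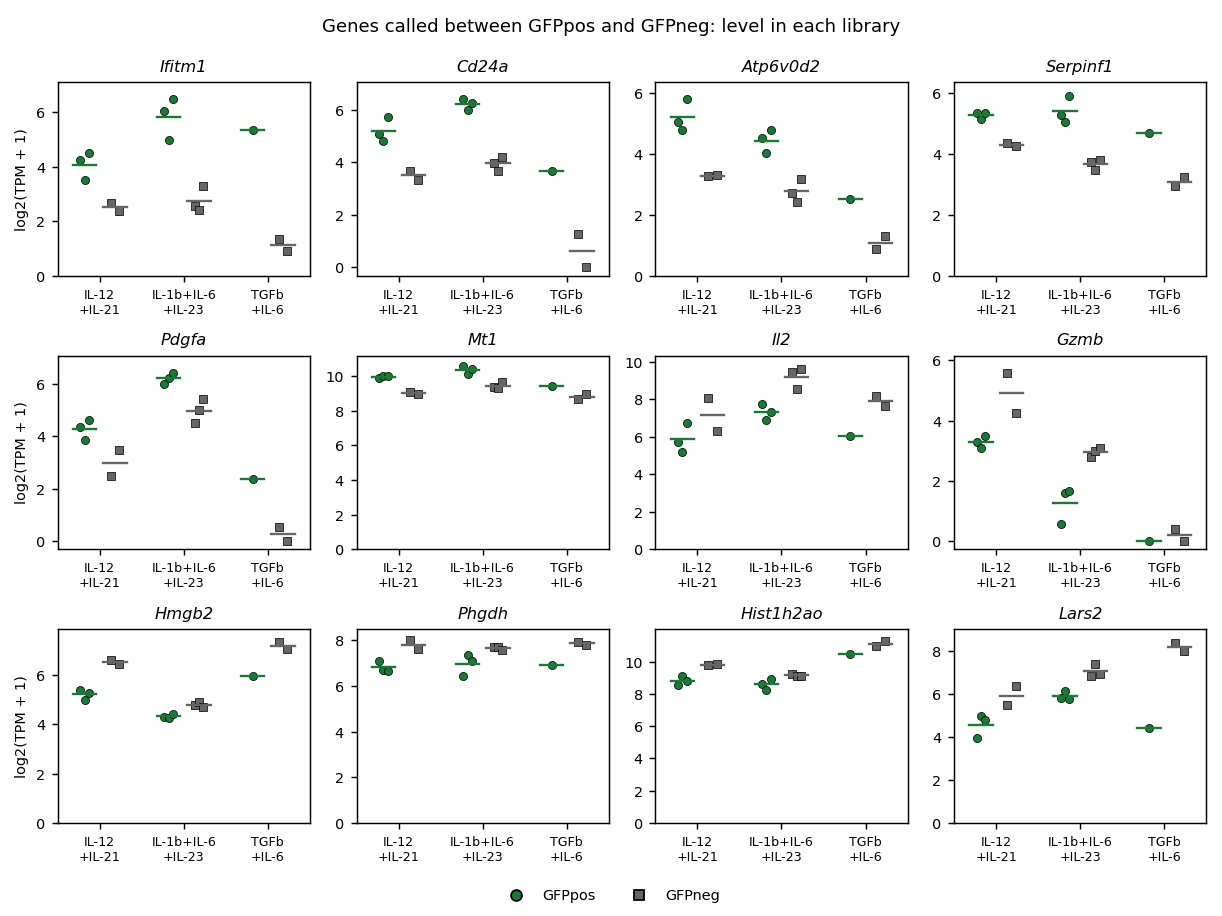
Level of 12 genes as log2(TPM + 1) (vertical axis) in each library by culture (horizontal axis), with GFPpos as circles on the left and GFPneg as squares on the right of each culture and means as lines. Ifitm1, Cd24a, Atp6v0d2, Serpinf1, Pdgfa and Mt1 are higher in GFPpos in each culture, and Il2, Hmgb2, Phgdh, Hist1h2ao and Lars2 have lower means in GFPpos in each, while Gzmb is near 0 in the TGFb culture.

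Metallothionein genes, whose small proteins bind zinc and copper, rose with the reporter at high levels. Mt1 had 921, 1007 and 1011 TPM in GFPpos cells of the IL-21 culture, against 528 and 498 TPM in GFPneg cells. Mt1 levels in the IL-23 culture were 1488, 1088 and 1332 TPM in GFPpos cells and 663, 621 and 789 TPM in GFPneg cells. Mt1 had 680.1 TPM in GFPpos cells of the TGFb culture, against 406 and 488 TPM in GFPneg cells. The sorts stood apart in each culture, least in the TGFb culture, and the log2 change of Mt1 was 0.86 ± 0.09 (adjusted p = 0.000107). Mt2, its neighbour on chromosome 8, ran from 121 to 456 TPM (median 234) in GFPpos libraries, against 69.8 to 195 TPM (median 107) in GFPneg libraries, with 1.06 ± 0.15 (adjusted p = 0.00185), and the weakly expressed Mt3 had 1.16 ± 0.26 (adjusted p = 0.0226) and lost its call with median-ratio scaling (adjusted p = 0.0703). These were the 3 of 9 tested members of the metal response list that were called, all higher (median 0.48). Over all genes tested 5.25% were called higher. Hmox1 had 0.48 ± 0.22 (adjusted p = 0.179) and the zinc importer gene Slc39a14 0.63 ± 0.18 (adjusted p = 0.0536).

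The promoter windows of Mt1 and Mt2 are shown because the genes share a locus and moved together. Capitals mark TGCNCNC, the core of the metal response element that the zinc sensor MTF1 binds, on either strand, in the 250 bases before the RefSeq start (GRCm38.p6).
Mt1, chr8:94178839-94179088, plus strand: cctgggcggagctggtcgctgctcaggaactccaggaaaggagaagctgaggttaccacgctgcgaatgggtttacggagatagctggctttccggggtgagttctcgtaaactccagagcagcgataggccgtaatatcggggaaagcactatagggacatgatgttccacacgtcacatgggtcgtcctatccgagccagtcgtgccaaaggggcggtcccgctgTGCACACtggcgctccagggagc
Mt2, chr8:94172368-94172617, plus strand: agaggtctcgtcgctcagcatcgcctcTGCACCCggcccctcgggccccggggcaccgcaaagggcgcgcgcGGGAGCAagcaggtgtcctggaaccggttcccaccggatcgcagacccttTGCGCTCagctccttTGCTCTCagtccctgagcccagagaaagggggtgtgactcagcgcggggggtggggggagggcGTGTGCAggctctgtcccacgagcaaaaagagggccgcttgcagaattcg
The Mt1 window has 1 match and the Mt2 window 5. These counts do not compare the 2 promoters. An annotated transcript start was found in the Mt1 sequence but not in that of Mt2, so the windows may lie differently. Matches outside the windows were not counted. The core is common, being found in 43.8% of all gene windows, in 4 of the 12 windows of the largest rises and in 3 of the 9 of the largest falls.

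Some genes of lipid metabolism and detoxification rose with the reporter. Of 24 tested cholesterol synthesis genes 9 were called higher and 0 lower (median 0.38), against 5.25% and 0.518% of all genes. Called or not, 20 were higher in all 3 cultures, against 41.5% of all genes. Mvd, the gene of mevalonate diphosphate decarboxylase, ran from 36.8 to 69.0 TPM (median 50.7) in GFPpos libraries, against 22.6 to 42.8 TPM (median 32.8) in GFPneg libraries, with 0.67 ± 0.11 (adjusted p = 0.00456). Nsdhl, which acts on sterols, had 0.91 ± 0.16 (adjusted p = 0.00456), Ebp 0.64 ± 0.14 (adjusted p = 0.0203) and Msmo1 0.57 ± 0.12 (adjusted p = 0.0158). The regulator gene Srebf2 had 0.02 ± 0.22 (adjusted p = 0.961). With median-ratio scaling 4 of the 24 were called, all higher, with a list median of 0.16, and Msmo1 was not among them (adjusted p = 0.11). The sterol regulatory core CACNCCAC was in 0 of the 4 promoter windows of these named members, against 5.16% of all windows, and the CCAAT box in all 4, against 34.5%.

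Of 17 tested genes of lipid handling and detoxification 8 were called higher and 0 lower (median 0.53). Over all genes tested the shares were 5.25% and 0.518%. Gstt3, a glutathione transferase gene, ran from 20.5 to 75.0 TPM (median 57.6) in GFPpos libraries, against 3.74 to 33.5 TPM (median 26.2) in GFPneg libraries, with 1.24 ± 0.16 (adjusted p = 0.000577). Dgat1, whose enzyme makes triglycerides, had 1.10 ± 0.16 (adjusted p = 0.00203), while Dgat2 had -0.29 ± 0.21 (adjusted p = 0.396). Smpdl3a, a phosphodiesterase gene, had 0.87 ± 0.17 (adjusted p = 0.0107) and Gstt2 0.55 ± 0.09 (adjusted p = 0.00414). Median-ratio scaling left 4 of the 8 calls, and Gstt2 lost its call (adjusted p = 0.132). Of 20 glycolysis and hypoxia genes 2 were called higher (Bnip3, 0.67 ± 0.14 (adjusted p = 0.0161), and the hexokinase gene Hk2, 0.61 ± 0.14 (adjusted p = 0.0239)) and 0 lower, with a median of 0.11, below the 0.20 of all genes. The share of all genes called higher was 5.25%.

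On the lower side, Il2, the gene of the growth factor that T cells make on activation, was among the 15 largest falls. In the IL-21 culture Il2 had 51.0, 36.2 and 107 TPM in GFPpos cells, against 269.6 and 78.2 TPM in GFPneg cells. GFPpos cells of the IL-23 culture had Il2 at 214, 119.8 and 163 TPM and GFPneg cells at 712, 373 and 789 TPM. With TGFb, Il2 had 65.6 TPM in GFPpos cells, against 287 and 199 TPM in GFPneg cells. Both Th17 cultures separated the sorts, while IL-21 culture GFPpos replicate 3 lay between the GFPneg libraries. The log2 change was -1.67 ± 0.28 (adjusted p = 0.00456), and Il2 was called in all 14 fits with 1 library left out.

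Gzmb levels in the IL-21 culture were 8.72, 7.58 and 10.3 TPM in GFPpos cells and 47.0 and 18.2 TPM in GFPneg cells. For the IL-23 culture the Gzmb levels were 0.490, 2.00 and 2.12 TPM in GFPpos cells and 5.91, 6.95 and 7.48 TPM in GFPneg cells. Gzmb in the TGFb culture had 0 TPM in GFPpos cells, against 0.310 and 0 TPM in GFPneg cells. Gzmb encodes granzyme B, a protease of cytotoxic granules. It was lower in GFPpos in the IL-21 and IL-23 cultures and near 0 in both sorts of the TGFb culture, where it was not detectably different. The log2 change was -1.37 ± 0.26 (adjusted p = 0.00866), and it was the 1 called gene among 9 tested cytotoxic granule genes (0 higher, median -0.09). Over all genes tested 0.518% were called lower and 5.25% higher.

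Some genes of chromatin proteins fell, and fewer rose. Hmgb2 had 41.0, 30.4 and 37.9 TPM in GFPpos cells of the IL-21 culture, against 97.7 and 86.7 TPM in GFPneg cells. Hmgb2 levels in the IL-23 culture were 18.8, 18.2 and 20.1 TPM in GFPpos cells and 26.6, 29.2 and 24.9 TPM in GFPneg cells. Hmgb2 had 61.6 TPM in GFPpos cells of the TGFb culture, against 159 and 131 TPM in GFPneg cells. Hmgb2, which encodes a DNA-bending protein abundant in dividing cells, was lower in every GFPpos library than in any GFPneg library of the same culture, with differences of -1.32, -0.48 and -1.21 and a log2 change of -0.92 ± 0.15 (adjusted p = 0.00354). Of 23 tested genes of high mobility group and replication-linked chromatin proteins 9 were called lower and 1 higher, against 0.518% and 5.25% of all genes, with a median of -0.34. Hmgn2 had -0.84 ± 0.17 (adjusted p = 0.0114), Hmgb3 -0.84 ± 0.21 (adjusted p = 0.0335), the histone variant gene H2afz -0.75 ± 0.13 (adjusted p = 0.00456), and Hmgb1 -0.49 ± 0.12 (adjusted p = 0.0293). The member that rose was Hmgn3, at 0.97 ± 0.16 (adjusted p = 0.00417), in the direction opposite to Hmgn2 and Hmgn1 (-0.52 ± 0.11 (adjusted p = 0.0137)).

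The Hmgb2 window is printed as an example of the falls, with the CCAAT box or its reverse complement in capitals, since that box is common in promoters of cell cycle genes.
Hmgb2, chr8:57511593-57511842, plus strand: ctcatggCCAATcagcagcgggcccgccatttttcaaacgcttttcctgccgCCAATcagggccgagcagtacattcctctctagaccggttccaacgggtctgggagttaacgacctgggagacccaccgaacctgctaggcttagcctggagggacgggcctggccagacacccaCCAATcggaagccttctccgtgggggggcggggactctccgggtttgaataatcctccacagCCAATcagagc
It holds 4 matches in the 250 bases before the RefSeq start (GRCm38.p6). The box was in 3 of the 9 windows of the largest falls and in 4 of the 12 of the largest rises, against 34.5% of all windows, so neither set is set apart by it.

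Of 57 tested histone cluster genes, counted after their values were seen, 4 were called lower and 2 higher (median -0.07). Over all genes tested the shares were 0.518% and 5.25%. Called or not, 9 histone genes were lower in all 3 cultures and 6 higher, against 6.02% and 41.5% of all genes. The genes called lower, Hist1h2ab, Hist2h3b, Hist1h2ap and Hist1h2ao, were among the 15 largest falls. Hist1h2ao ran from 295 to 1411 TPM (median 444) in GFPpos libraries, against 559 to 2464 TPM (median 865) in GFPneg libraries, with -0.74 ± 0.12 (adjusted p = 0.0038), Hist1h2ap had -0.82 ± 0.20 (adjusted p = 0.0303), Hist2h3b -1.96 ± 0.42 (adjusted p = 0.0158) and Hist1h2ab -2.01 ± 0.50 (adjusted p = 0.0323). The genes called higher were Hist1h2bc, at 1.10 ± 0.21 (adjusted p = 0.00904), which was called in all 14 fits with 1 library left out and with both other scalings, and Hist3h2ba, at 1.28 ± 0.31 (adjusted p = 0.0292), which lost its call with median-ratio scaling (adjusted p = 0.0544). Histone genes are near-identical copies whose reads may be split between them, and their transcripts mostly lack the poly(A) tail from which SMART-Seq2 primes, so their separate values are uncertain. Hist1h2ab was called in 9 and Hist1h2ap in 11 of the 14 fits with 1 library left out (log2 changes -2.27 to -1.60 and -0.94 to -0.66).

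Of 34 tested DNA replication and mitosis genes 6 were called lower and 0 higher (median -0.36), against 0.518% and 5.25% of all genes. Called or not, 20 were lower in all 3 cultures and 1 was higher, against 6.02% and 41.5% of all genes. Ube2c, the gene of a ubiquitin-conjugating enzyme of mitotic exit, had -0.67 ± 0.14 (adjusted p = 0.0153). Tubb5, Birc5 and Rrm2 had -0.43 ± 0.11 (adjusted p = 0.0308), -0.45 ± 0.12 (adjusted p = 0.0433) and -0.46 ± 0.13 (adjusted p = 0.0446). The proliferation marker Mki67 had -0.08 ± 0.20 (adjusted p = 0.819) and Pcna -0.02 ± 0.11 (adjusted p = 0.921). With median-ratio scaling 13 were called, all lower. Ube2c was called in all 14 fits with 1 library left out, Tubb5 in 9, Birc5 in 2 and Rrm2 in 4, with log2 changes for Birc5 -0.53 to -0.39.

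Some chaperone genes also fell. Of 15 tested heat shock chaperone genes 4 were called lower and 0 higher (median -0.34), against 0.518% and 5.25% of all genes. Called or not, 7 were lower in all 3 cultures, against 6.02% of all genes. With median-ratio scaling 8 were called lower and 0 higher. The calls were Hspa5, the chaperone of the endoplasmic reticulum (-0.66 ± 0.17 (adjusted p = 0.0331)), the mitochondrial pair Hspd1 (-0.45 ± 0.12 (adjusted p = 0.042)) and Hspe1 (-0.42 ± 0.10 (adjusted p = 0.0256)), and Hsp90ab1 (-0.35 ± 0.09 (adjusted p = 0.0371)). They were called in 9, 2, 10 and 3 of the 14 fits with 1 library left out, with all changes below 0.

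In the IL-21 culture Phgdh had 135, 104 and 99.3 TPM in GFPpos cells, against 252 and 192 TPM in GFPneg cells. GFPpos cells of the IL-23 culture had Phgdh at 85.5, 159 and 134 TPM and GFPneg cells at 207, 204 and 191 TPM. With TGFb, Phgdh had 119 TPM in GFPpos cells, against 236 and 222 TPM in GFPneg cells. Phgdh encodes the first enzyme of serine synthesis. Its GFPpos values lay below the GFPneg values in each culture, with differences of -0.98, -0.71 and -0.94, and the log2 change was -0.85 ± 0.13 (adjusted p = 0.00351). With all 18 libraries, 3 of which have 1331 or fewer genes at a TPM of at least 1, the estimate turned to 0.65 (adjusted p = 0.89).

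The rest of the 15 largest falls were Lars2, H2-Q9, Ms4a4b and Igfbp4. Lars2, the mitochondrial leucyl-tRNA synthetase gene, ran from 14.5 to 69.3 TPM (median 30.2) in GFPpos libraries, against 44.3 to 327 TPM (median 123) in GFPneg libraries. Its differences were -1.36, -1.16 and -3.77, and its change was -1.75 ± 0.30 (adjusted p = 0.00456, interaction adjusted p = 0.244). The difference in the TGFb culture rests on 1 GFPpos library, at 20.1 TPM. Replicate 2 of that group, not used in the fit, had Lars2 at 286 TPM, between the GFPneg values of 327 and 254 TPM. H2-Q9, an MHC class Ib gene whose reads may be split with other H2-Q copies, had -1.79 ± 0.39 (adjusted p = 0.0193). Ms4a4b, a membrane protein gene of T cells, had -1.03 ± 0.27 (adjusted p = 0.0366) and was called in 6 of the 14 fits with 1 library left out (log2 change -1.23 to -0.82). Igfbp4, which encodes a binder of insulin-like growth factors, ran from 11.3 to 67.3 TPM (median 13.5) in GFPpos libraries, against 19.5 to 226 TPM (median 27.1) in GFPneg libraries, with -0.82 ± 0.18 (adjusted p = 0.0186).

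For the 30 largest rises and falls an exact two-sided permutation test, with GFP status permuted within cultures (600 arrangements), gave an unadjusted p of 0.00167, the smallest possible, for 16 genes and at most 0.00833 for the others. The same values chose these genes, so this describes them and adds no support.

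Some genes of other helper programs were called, beside 5.25% of all genes tested called higher and 0.518% called lower. Ifng was at 450.3, 233 and 299.7 TPM in IL-21 culture GFPpos cells, against 231 and 131 TPM in GFPneg cells, and at no more than 0.90 TPM in the other cultures. Its lowest GFPpos value was just above the higher GFPneg value, and the additive change was 0.22 ± 0.23 (adjusted p = 0.556). Tbx21, the gene of the Th1 factor T-bet, had 0.22 ± 0.32 (adjusted p = 0.679), with the sorts overlapping in the IL-21 culture. Of 14 tested Th1 genes Il12rb2 alone was called (median 0.27). Gata3, the Th2 factor gene, had -0.75 ± 0.23 (adjusted p = 0.0581), and it was called lower with median-ratio scaling (adjusted p = 0.0319), although it was higher in TGFb culture GFPpos cells. Foxp3, the gene of the regulatory T cell factor, changed by -0.70 ± 0.17 (adjusted p = 0.0287), at no more than 1.23 TPM in GFPpos and 1.77 TPM in GFPneg libraries, and it was called in 11 of the 14 fits with 1 library left out (log2 change -0.83 to -0.61). Of 9 tested regulatory T cell genes Foxp3 was called lower and Ctla4 higher, and of 5 tested Th2 and follicular helper genes 0 were called (median -0.32). Cd160 was not tested, with a highest value of 0.06 TPM.

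Some receptors that restrain T cells rose. The counts that follow stand beside 5.25% of all genes tested called higher and 0.518% called lower. Of 10 tested co-inhibitory receptor and ectonucleotidase genes 3 were called higher and 0 lower (median 0.48): Ctla4 (0.63 ± 0.15 (adjusted p = 0.0256)), Tigit (0.88 ± 0.20 (adjusted p = 0.0239)) and Pdpn (1.27 ± 0.30 (adjusted p = 0.0259)), none of them with median-ratio scaling (adjusted p = 0.108, adjusted p = 0.0769 and adjusted p = 0.0652). The list of JAK-STAT feedback genes had 0 of 22 called, with Pias1 the nearest at 0.51 ± 0.16 (adjusted p = 0.0634). Of 22 genes that respond early to T cell receptor signals 1 was called, the phosphatase gene Dusp2 at 0.86 ± 0.17 (adjusted p = 0.0112), and 1 of 13 TNF receptor family genes, Tnfrsf8 (CD30), at 0.89 ± 0.25 (adjusted p = 0.0451). Among TGF-beta pathway and response genes Lgals1 and Smad3 were called higher, by 0.39 ± 0.07 (adjusted p = 0.00698) and 0.86 ± 0.19 (adjusted p = 0.0199), and Foxp3 lower, of 14 tested. Of 15 genes of the pathogenic Th17 signature Il22 and Lgals3 (0.94 ± 0.23 (adjusted p = 0.0312)) were called higher and Gzmb lower, and of 6 genes of the non-pathogenic signature Maf was called. Of 11 chemokine receptor genes 2 were called higher, Gpr183, an oxysterol receptor gene, by 0.70 ± 0.17 (adjusted p = 0.0287), and S1pr1, which guides lymphocytes out of lymph nodes, by 0.83 ± 0.19 (adjusted p = 0.0246). With median-ratio scaling Dusp2, Tnfrsf8, Lgals1, Smad3, Lgals3, Gpr183 and S1pr1 were not called, and S1pr1 did not have the same sign in all 3 cultures. Of the 14 fits with 1 library left out, Tnfrsf8 was called in 4, Lgals3 in 8, and Ctla4 and Gpr183 in 9. Pdpn was called in 10 of them, Tigit in 11, Smad3 in 13, and Dusp2 and Lgals1 in all 14.

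**Figure D5:**
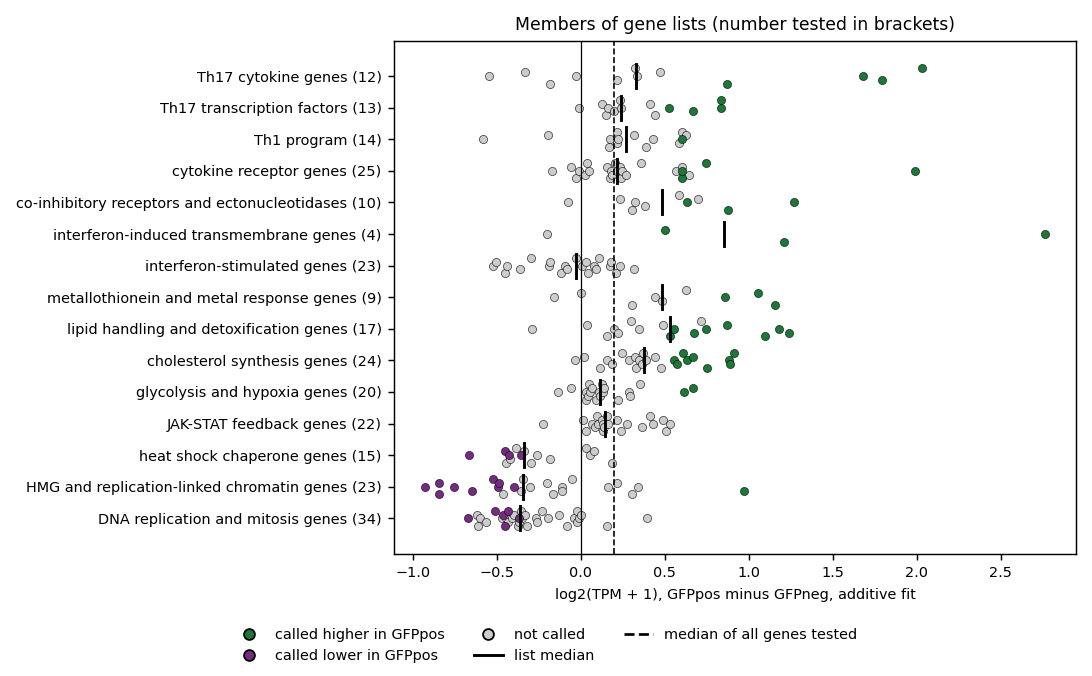
Log2 change between GFPpos and GFPneg in the additive fit (horizontal axis) of each tested member of 15 gene lists (vertical axis), coloured by call, with list medians as solid ticks and the median of all genes tested, 0.20, as a dashed line. The medians of the chromatin, replication and chaperone lists lie below 0, with 9, 6 and 4 members called lower and Hmgn3 of the chromatin list called higher, and cholesterol synthesis and lipid handling genes have 9 and 8 members called higher.

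Over all genes tested 5.25% were called higher and 0.518% lower. Of 15 tested naive and central memory genes 2 were called higher (Satb1 and S1pr1) and 2 lower (Igfbp4 and Ms4a4b), with a median of 0.02. With median-ratio scaling 0 were called higher and 3 lower (Igfbp4, Ms4a4b and the lymph node homing receptor gene Ccr7), with a median of -0.16. Of 8 tested MS4A and TMEM176 genes Ms4a4b was called lower (median -0.01). The 13 mitochondrially encoded symbols had no match and are not analysed here.

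The test for a GFP effect that differs between cultures called 2 of 9466 genes (0.0211%), with an unadjusted p under 0.05 for 635 (6.71%), and a shared sign in the remaining genes does not show that the sizes were alike. Hspa1a levels in the IL-21 culture were 3.40, 1.86 and 3.12 TPM in GFPpos cells and 6.04 and 4.54 TPM in GFPneg cells. For the IL-23 culture the Hspa1a levels were 2.02, 2.44 and 1.50 TPM in GFPpos cells and 10.1, 5.86 and 9.86 TPM in GFPneg cells. Hspa1a in the TGFb culture had 53.6 TPM in GFPpos cells, against 7.10 and 5.04 TPM in GFPneg cells. Hspa1a, the inducible chaperone HSP70, was lower in GFPpos in 2 of the cultures and higher in the single TGFb culture GFPpos library, with differences of -0.74, -1.67 and 2.97 (interaction adjusted p = 0.00528). Il1r2, the decoy receptor of IL-1, had differences of 0.65, 0.91 and -2.00 (interaction adjusted p = 0.0286). Il1r2 had 6.59, 6.70 and 11.1 TPM in GFPpos cells of the IL-21 culture, against 5.08 and 4.29 TPM in GFPneg cells. Il1r2 levels in the IL-23 culture were 176, 207 and 159 TPM in GFPpos cells and 106, 85.2 and 95.6 TPM in GFPneg cells. Il1r2 had 0.850 TPM in GFPpos cells of the TGFb culture, against 5.89 and 6.93 TPM in GFPneg cells. The opposite direction in the TGFb culture rests on that single library in both genes. In TGFb culture GFPpos replicate 2, not used in the fit, Hspa1a was at 5.16 TPM, between the GFPneg values, and Il1r2 at 0 TPM. The next 3 by adjusted p, Cd9, Nrn1 and Crabp2, were not called (adjusted p = 0.0654, 0.0891 and 0.0891). Across all 9466 genes the culture differences correlated weakly between the IL-21 and IL-23 cultures (Pearson r = 0.31), the IL-21 culture and the TGFb culture (0.28), and the IL-23 and TGFb cultures (0.10), a description over genes that share libraries.

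The cells looked like CD4 T cells in both sorts. All 10 markers of CD4 T cells were tested, and their summed level ran from 1932 to 3637 TPM in GFPpos libraries and from 2069 to 3020.3 TPM in GFPneg libraries. Cd3g (0.47 ± 0.10 (adjusted p = 0.0161)) and Cd28 (0.77 ± 0.18 (adjusted p = 0.0256)) were called higher, neither with median-ratio scaling. None of 9 natural killer and 9 gamma-delta or innate-like T cell markers passed the filter, with sums of at most 2.34 TPM in GFPpos and 1.35 TPM in GFPneg libraries. Summed markers of CD8 T cells ran from 6.61 to 17.5 TPM in GFPpos and 6.15 to 17.9 TPM in GFPneg libraries, of B cells from 18.8 to 32.9 and 9.90 to 29.0 TPM, of myeloid and dendritic cells from 4.13 to 9.69 and 3.67 to 14.4 TPM, and of erythroid cells and neutrophils from 5.91 to 21.0 and 11.9 to 29.1 TPM. Ebf1, listed as a B cell marker, was called higher (0.87 ± 0.21 (adjusted p = 0.0276)), but not with median-ratio scaling (adjusted p = 0.0536). Its call held in 8 of the 14 fits with 1 library left out, and the sorts overlapped in the IL-23 culture. The part of Ebf1 in the other results was not tested. The markers closest to a call in the other lists were Crtam (0.10 ± 0.18 (adjusted p = 0.736)), Xcr1 (-0.05 ± 0.24 (adjusted p = 0.904)) and Csf3r (-0.50 ± 0.16 (adjusted p = 0.0734)).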

How the data were processed

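RNA of 21 libraries was deposited by the authors as 1 table of TPM values for 23415 gene symbols, and 14 libraries were analysed here. The tools named in the submitters' processing notes are RSEM 1.2.31, Bowtie2 2.2.9 and Trimmomatic 0.32, with the build GRCm38. How they were run, the annotation and the use of strand are not given in the sources used here. TPM keeps no depth, so the reads behind a value are unknown and no counting interval is given. TPM values are shares, so a rise of some transcripts lowers the rest, and a value of exactly 0 may be a failed estimate. Overlapping, antisense and near-identical genes may share reads.

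From these values the additive model (GFP status and culture) was fitted on log2(TPM + 1) by limma 3.58.1 (R 4.3.3), using empirical Bayes and a trend. It covered the 9466 genes that reach 1 TPM in 3 or more of the 14 libraries, and Benjamini-Hochberg adjustment ran over all of them. Changes are GFPpos minus GFPneg on this scale, which understates the change of low genes. Estimates are given ± SE. An interaction model gave the test of a difference between cultures. Libraries with fewer than 7000 genes at a TPM of at least 1 were left out (4 of the 18 of these cultures), as was the culture with IL-12 alone, of which GFPneg cells are given. Of the symbols, 22887 matched GENCODE M21 or RefSeq and 528 did not.

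The members, the 36 gene lists and the tests were chosen with earlier results of these data known, so lists are described by counts and medians without a test. Named genes were a fixed set of cytokine and lineage genes, the 15 largest rises and 15 largest falls (called, same sign in all 3 cultures, mean of at least 5 TPM in the higher sort), up to 4 called members of each list by adjusted p or else its nearest member, and the 5 genes with the smallest interaction p. Genes given as further members of a list were chosen after their values were seen. Some members counted here are not reported by name. Alternatives tried were the pseudocounts 5 and 0.1, a filter at 5 TPM or none, median-ratio scaling, quantile normalization, no trend, array weights, group means, a replicate block, no culture block, other sets of libraries, and each library left out. The script was tested on simulated data.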

Additional observations from a re-analysis of the deposited data

Results flagged for a closer look

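The GFP effect differed between cultures, by the interaction test over all 9466 genes, for Hspa1a (adjusted p = 0.00528) and Il1r2 (adjusted p = 0.0286). Hspa1a had log2 differences of -0.74, -1.67 and 2.97 and Il1r2 of 0.65, 0.91 and -2.00 in the IL-21, IL-23 and TGFb cultures. The opposite sign in the TGFb culture rests on 1 GFPpos library. Replicate 2 of that group, not used in the fit, had Hspa1a at 5.16 TPM, between the GFPneg values, and Il1r2 at 0 TPM.

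Libraries that the fit did not use held some of the same transcripts. In TGFb culture GFPpos replicate 2, 9 of the 15 largest rises were above both TGFb culture GFPneg libraries used: Ifitm1 at 30.5, Cox7a1 at 23.5, Serpinf1 at 17.0, Rhoc at 16.8, Crispld2 at 8.34, Tmsb15b1 at 6.11, Pdgfa at 4.84, Il23r at 1.69 and Cd24a at 1.57 TPM. Il23r, 1 of these 9, chose the cells, and the reporter row was at 0 TPM in this library. The same library had 5 of the 15 rises below both GFPneg libraries. These were Il17f at 323, Il17a at 69.7, Gap43 at 22.7, Gnpda2 at 0.78 and Atp6v0d2 at 0.42 TPM. Of the 15 largest falls, 11 were below both GFPneg libraries and 2 above both. In TGFb culture GFPpos replicate 3, which has 1157 genes at a TPM of at least 1, Il23r was at 146 and Gap43 at 300.2 TPM, and the other 13 rises were listed at 0. In that library 13 of the 15 falls were listed at 0 too.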

How the results depend on the processing

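Counts are given as genes called, those with the same sign in every culture, and those with no overlap in any culture, 546, 539 and 283 as reported. They were 242, 242 and 181 with no filter, 265, 261 and 183 with median-ratio scaling, 261, 259 and 175 with quantile normalization, 32, 32 and 28 with no culture block, 6, 6 and 5 with TGFb culture GFPpos replicate 2 added, and 0, 0 and 0 with all 18 libraries. Leaving out a culture gave 31, 31 and 31 (the IL-21 culture), 333, 328 and 321 (the IL-23 culture) and 133, 133 and 111 (the TGFb culture). With 1 library left out they ran from 154 to 689, 154 to 673 and 125 to 419, lowest without TGFb culture GFPpos replicate 1 and highest without IL-23 culture GFPneg replicate 3. The first count moved by over 1.5 times also without IL-21 culture GFPneg replicate 1 (223) or 2 (211), IL-21 culture GFPpos replicate 3 (251), IL-23 culture GFPneg replicate 2 (279), IL-23 culture GFPpos replicate 3 (274), and TGFb culture GFPneg replicate 1 (314) or 2 (356). The cause was not tested.

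The interaction called 2 genes as reported, 8 with a pseudocount of 5, 107 with no filter, 7 with quantile normalization, 1 with no trend, 0 with either added library set (330 and 131 at an unadjusted p under 0.05 with 15 and 18 libraries), 6, 5 and 0 without the IL-21, IL-23 and TGFb cultures, and 0 to 5 with 1 library left out. The median gene was at 0.021 with median-ratio scaling, 0.0015 with quantile normalization, 0.34 with 18 and 0.036 with 15 libraries, and between 0.15 and 0.23 with 1 library left out.

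Whether replicate numbers pair the samples could not be settled. Deviations of same-numbered GFPpos and GFPneg libraries correlated at 0.161 in the IL-21 culture and at -0.088, 0.045 and 0.073 in the IL-23 culture. Different-numbered libraries correlated at -0.161 in the IL-21 culture and between -0.146 and 0.09 in the IL-23 culture. With 2 shared numbers the IL-21 culture gives a single value with either sign, and the TGFb culture, with 1 GFPpos library, could not be checked. With the replicate block beside culture 598, 580 and 283 genes were called (509 higher and 89 lower), the interaction called 11, and the median was 0.16.

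Log2 changes of named genes that took the other sign were Cd9 at -0.019 with a pseudocount of 5, Cd9 at -0.21 with median-ratio scaling, and Crtam at -0.10 and Cd9 at -0.12 with quantile normalization. Others were Xcr1 at 0.019 and Cd9 at -0.10 with array weights, Xcr1 at 0.13, Hspa1a at 0.19 and Il1r2 at -0.15 with group means, and Cd9 at -0.052 with the replicate block. Others were Ifng at -0.30, Phgdh at 0.65, Igfbp4 at 0.34, Ifitm2 at -0.11, Ube2c at 0.10, Tubb5 at 0.36, Birc5 at 0.15, Hspd1 at 0.044, Xcr1 at 0.46 and Csf3r at 0.0024 with all 18 libraries, Il21 at -0.14, Il10 at -0.057, Xcr1 at 0.23, Il1r2 at -0.080 and Cd9 at -0.13 with 15 libraries, and Xcr1 at 0.12 and Cd9 at -0.11 without the IL-21 culture. Others were Xcr1 at 0.15, Hspa1a at 0.58, Il1r2 at -0.29 and Nrn1 at 0.18 without the IL-23 culture, and Cd9 at -0.37 without the TGFb culture. With 1 library left out, signs turned for Cd9 from -0.37 to 0.14, Xcr1 from -0.33 to 0.11 and Crtam from -0.00032 to 0.17. Named genes that were called kept their sign under every setting but the one with all 18 libraries.

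Without read counts the depth that limits low genes is unknown. The libraries left out are thin, TGFb culture GFPpos is a single library, and a lone library is assumed to vary like the others.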

Other observations

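Other gene groups were drawn up after values were seen and are given as counts. Over all genes tested 5.25% were called higher and 0.518% lower. Of 8 tested genes of serine and one-carbon synthesis 2 were called lower, Phgdh and Psat1 (-0.50 ± 0.14, adjusted p = 0.0419), and 6 were lower in all 3 cultures (median -0.30). Of 12 amino acid response genes under the stress factor ATF4, Asns, which makes asparagine (-0.55 ± 0.14, adjusted p = 0.0325), and the amino acid transporter subunit gene Slc3a2 (-0.47 ± 0.11, adjusted p = 0.0299) were called lower (median -0.28). The 8 subunit genes of the ring chaperonin had estimates between -0.34 and -0.16, with 0 called (limma, TPM as deposited) and 8 called lower with median-ratio scaling. Of 16 vacuolar proton pump genes 3 were called higher, Atp6v0d2, Atp6v0a1 (0.67 ± 0.19, adjusted p = 0.0487) and Atp6v0e (0.36 ± 0.10, adjusted p = 0.0452), with a median of 0.35. Median-ratio scaling left 1 of these calls.

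Of 98 tested variable segments of T cell receptor genes 4 were called higher (Trbv16, Trbv29, Trav10 and Trav8d-2) and 0 lower, and the 4.08% called higher is below the 5.25% of all genes tested. Trbv16 was at 25.5, 17.7 and 28.5 TPM in IL-21 culture GFPpos cells, against 5.28 and 10.4 TPM in GFPneg cells, at 13.4, 21.0 and 31.3 TPM in IL-23 culture GFPpos cells, against 4.97, 7.80 and 8.92 TPM in GFPneg cells, and at 35.1 TPM in TGFb culture GFPpos cells, against 8.90 and 5.07 TPM in GFPneg cells. GFPpos lay above GFPneg in each culture, and the log2 change was 1.62 ± 0.22 (adjusted p = 0.0011). Short segments that resemble each other may share reads.

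The rows TDTOMATO and ICRE name no mouse gene, and the table does not say what they hold. TDTOMATO had a log2 change of 1.79 ± 0.33 (adjusted p = 0.00687), with differences of 0.35, 2.41 and 2.97 in the IL-21, IL-23 and TGFb cultures, and the sorts overlapped in the IL-21 culture. ICRE had 1.67 ± 0.40 (adjusted p = 0.0256) and was listed at 0 in all 5 libraries of the IL-21 culture, so its additive value rests on the other cultures. It was called in 11 of the 14 fits with 1 library left out.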
